A study of Mus musculus with 250 samples.

Results

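The interferon response genes are a list of 41 mouse genes that are known to be switched on by interferons, from the antiviral Oas, Ifit and Mx families to the guanylate-binding proteins, the immunoproteasome and the chemokines Cxcl9 and Cxcl10. They were chosen by name, and 38 of the 41 had a probe set listed for that gene alone, out of 18194 genes measured in all. Isg15, Oas1g and Ifi44 had none and were not analysed here. The tumor-bearing animals were female FVB mice bitransgenic for MMTV-rtTA/TetO-NeuNT. In them the MMTV promoter, active mainly in mammary epithelium, drives the rtTA switch, and doxycycline then turns on an activated form of the Her2/Neu receptor. Their controls were littermates matched by age and cage that had only the TetO-NeuNT transgene. Both groups drank doxycycline (2 mg/mL, with 5% sucrose) from week 8 of age, and a pair was killed when the tumor measured 1 cm. Whole breast, which in tumor-bearing mice holds the tumor, and liver, spleen, blood cells without plasma and thymus were each hybridised for 25 matched pairs, giving 250 arrays in all. The control thus differs from the tumor-bearing mouse by the rtTA transgene as well as by the tumor.

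Interferons are secreted proteins that cells release on sensing nucleic acid or, in the case of interferon gamma, that T and NK cells release on activation. Type I interferons signal through the Ifnar receptor to a complex that holds Stat2 and Irf9 and binds the interferon-stimulated response element. Interferon gamma signals through the Ifngr receptor to factors that bind the gamma-activated site, and induces Irf1. Many target genes respond to both, but the Oas and Ifit genes are usually read as targets of type I interferon and Cxcl9, Iigp1 and the guanylate-binding proteins as targets of interferon gamma.

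The stretches of 130 bases before the transcription start of 8 members are shown because they lie where both kinds of interferon are known to act, and because these genes moved in different directions. Of the 8, Oas1a and Igtp carry both elements searched for, Cxcl9 carries neither and the others carry 1 kind. They are RefSeq sequences of the mouse build GRCm38.p6, read 5′ to 3′ on the strand of the gene. Capitals mark matches to the interferon-stimulated response element (TTTC, any 2 bases, TTTC, or on the other strand GAAA, any 2 bases, GAAA) and to the gamma-activated site (TTC, any 3 bases, GAA, the same on both strands), where matches may overlap.
Oas1a (chr5:120907526-120907655, minus strand): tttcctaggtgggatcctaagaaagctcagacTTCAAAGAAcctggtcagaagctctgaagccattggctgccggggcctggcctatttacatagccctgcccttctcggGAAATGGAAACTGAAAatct
Oas3 (chr5:120777660-120777789, minus strand): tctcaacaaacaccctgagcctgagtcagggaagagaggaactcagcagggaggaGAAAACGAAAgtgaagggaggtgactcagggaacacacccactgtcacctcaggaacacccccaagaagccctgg
Ifit1 (chr19:34640759-34640888, plus strand): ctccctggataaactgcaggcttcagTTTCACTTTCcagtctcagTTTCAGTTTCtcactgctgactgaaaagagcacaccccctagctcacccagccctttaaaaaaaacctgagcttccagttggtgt
Rsad2 (chr12:26456453-26456582, minus strand): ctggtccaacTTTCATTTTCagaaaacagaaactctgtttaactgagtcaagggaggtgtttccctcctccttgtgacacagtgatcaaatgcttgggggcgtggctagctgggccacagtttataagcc
Igtp (chr11:58199426-58199555, plus strand): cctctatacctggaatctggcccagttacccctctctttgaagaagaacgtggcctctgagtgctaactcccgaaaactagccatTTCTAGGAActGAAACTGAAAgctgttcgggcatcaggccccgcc
Gbp2 (chr3:142620533-142620662, plus strand): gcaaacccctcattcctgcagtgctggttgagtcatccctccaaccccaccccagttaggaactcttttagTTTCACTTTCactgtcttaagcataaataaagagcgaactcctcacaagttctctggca
Psmb8 (chr17:34198065-34198194, plus strand): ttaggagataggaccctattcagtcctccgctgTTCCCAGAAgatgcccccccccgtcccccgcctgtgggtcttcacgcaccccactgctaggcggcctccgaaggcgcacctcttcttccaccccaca
Cxcl9 (chr5:92328080-92328209, minus strand): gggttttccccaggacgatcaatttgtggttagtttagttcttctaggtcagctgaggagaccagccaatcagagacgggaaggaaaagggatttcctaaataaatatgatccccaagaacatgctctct

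A RefSeq promoter window (250 bases before to 50 after a start) was found for 28 of the 38 measured members. The response element lay in 15 of these 28 (53.6 percent), against 3.99 percent of the 27025 genes with a promoter window. The gamma-activated site lay in 6 of the 28 (21.4 percent), against 9.55 percent of all genes. The response element lay in 4 of 7 Oas and Ifit members and in 2 of 3 of the gamma-driven members, Gbp2 and Gbp3, while the gamma-activated site lay in 2 of 7 and 0 of 3. Psmb8 and Igtp carried a gamma-activated site, Igtp directly before its response element, and Cxcl9 carried neither sequence of letters in this window.

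Levels are log2 of the deposited probe set intensity, and changes are tumor-bearing minus matched control on the log2 scale, given as mean ± SE over 25 pairs. A change was called at an adjusted p under 0.05 in limma, a linear model fitted over all genes, in which each matched pair was a block and p-values were adjusted by Benjamini-Hochberg over the 18194 genes. "Rose" and "fell" are kept for called changes, in tumor-bearing mice relative to controls. The number of arrays limits the precision, and in whole tissue fewer cells of a type and less RNA per cell cannot be told apart. Levels are compared only within a gene and a tissue.

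The tissue labels were checked against marker genes, and 11 of the 250 arrays stood apart. Hepatocyte markers summed to between 108000 and 133000 in tumor-bearing livers and between 78800 and 130000 in control livers, and thymocyte markers to between 21900 and 51400 in tumor-bearing thymus and between 605 and 55800 in control thymus. Arrays stood apart where the rank correlation with the median profile of their own tissue was under 0.9, or where another tissue's profile was closer. Breast had 1 such array, liver and blood 2 each, and spleen and thymus 3 each. The spleen array of tumor-bearing mouse 15 was closest to thymus (0.977, against 0.931 for spleen), the spleen controls 15 and 20 to breast, the thymus control 4 to breast and the thymus control 7 to spleen. Liver controls 9 and 3 had correlations of 0.333 and 0.739 with liver. In all, 10 of the 11 were controls. Leaving their pairs out kept 24, 23, 23, 23 and 22 pairs in breast, liver, spleen, blood and thymus, and results that rest on these arrays are given without them too, over what is called the reduced set of pairs.

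Interferon response genes moved in both directions in breast and spleen, almost only upwards in blood, and passed no test in thymus. In liver they moved only upwards with all pairs and in both directions over the reduced set. In blood 16 of the 38 members rose and 1 fell, against a background of 8.66 percent of all genes higher and 4.27 percent lower. In spleen 17 rose and 12 fell, against 22.4 percent and 18.3 percent of all genes. The called share was thus 44.7 percent of members in blood and 76.3 percent in spleen, against 12.9 and 40.7 percent of all genes. Without the arrays that stood apart, 14 rose and 1 fell in blood, against 8.43 and 5.73 percent of all genes (14.2 percent in either direction), and 17 rose and 17 fell in spleen, against 29.5 and 26.6 percent (56.2 percent in either direction).

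In liver 9 members rose and 0 fell, against 7.89 percent and 2.28 percent of all genes (10.2 percent in either direction). Over the reduced set, 15 members rose and 7 fell in liver, against 13.7 and 16.6 percent of all genes (30.3 percent in either direction). In breast 10 rose and 12 fell, against 30.0 and 32.3 percent of all genes, so that the share called (57.9 percent) lay near that of all genes (62.3 percent). Without the array that stood apart, 10 rose and 13 fell in breast, against 31.0 and 34.8 percent of all genes (65.8 percent in either direction). Breast sets a tumor against a mammary gland, and there 5 of 5 adipocyte markers fell and 5 of 6 measured luminal epithelial markers rose. Their part in the results was not tested. In thymus 0 members were called in either direction by limma, against 0.011 percent and 0.0 percent of all genes, and 1 of the 38, Rsad2, had an unadjusted p under 0.05. In the reduced set of pairs, it was again 0, against 0.0824 percent and 0.0 percent of all genes. Mx1, Bst2 and Ifi35 were called in no tissue with all pairs by the probe set used here. A second probe set of Ifi35 was called higher in breast (0.27 ± 0.07). With the reduced set, Mx1 rose in liver (0.14 ± 0.05), Bst2 fell in spleen (-0.20 ± 0.07), and Ifi35 fell in liver (-0.19 ± 0.05) and spleen (-0.13 ± 0.05). Calls gained in the same way outside these 3 genes were Oas3, Oasl1, Stat2, Ddx58 and Ifih1 higher in liver, Gbp2, Gbp3, Igtp, Tap1, Psmb9 and Cxcl9 lower in liver, Zbp1, Parp14 and Trim30a lower in spleen, and Gbp3 lower in breast. Trim30a gave -0.24 ± 0.05 in spleen over these pairs, against -0.03 ± 0.15 with all pairs.

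**Figure D1:**
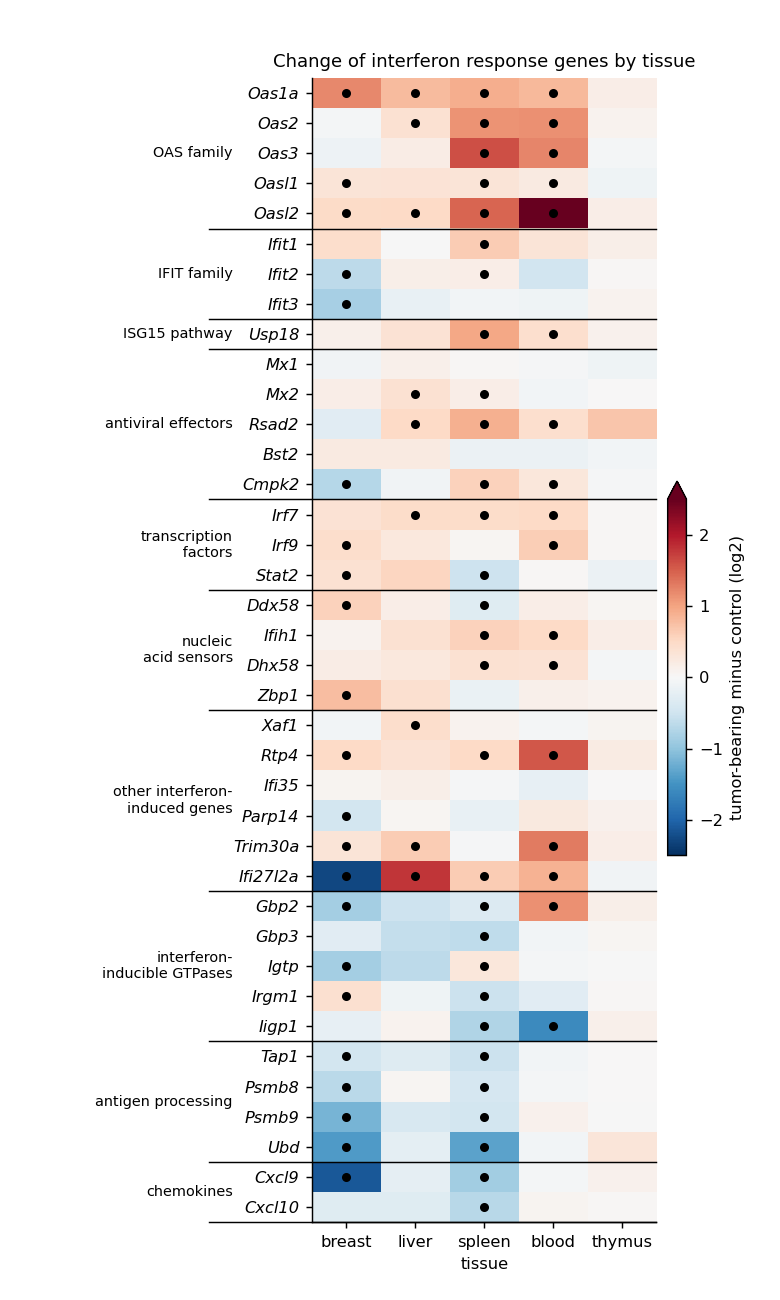
Change of each of the 38 measured members (rows, grouped by role) in each tissue (columns) as a colour, tumor-bearing minus control on the log2 scale, with a dot where the change was called. Red fills the Oas rows in spleen and blood, blue fills the antigen processing and chemokine rows in breast and spleen, and the thymus column has no dot. The colour scale ends at 2.5, below the Oasl2 change in blood of 3.39.

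The Oas genes encode 2′-5′ oligoadenylate synthetases, which on binding double-stranded RNA make the signal that activates RNase L. All 5 measured members rose in spleen and in blood, 3 rose in liver and 3 in breast. Oasl2, an Oas-like protein that carries ubiquitin-like domains, lay between 7.71 and 10.47 (median 9.10) in blood of tumor-bearing mice, against 4.97 to 8.25 (median 5.58) in control blood. Of the 25 tumor-bearing blood arrays, 23 lay above every control. This 10.4-fold rise (3.39 ± 0.20, higher in 25 of 25 pairs, limma adjusted p = 6.95e-12) was the largest change of any member in any tissue. In spleen Oasl2 lay between 7.88 and 10.30 (median 8.54) in tumor-bearing mice, against 6.45 to 8.00 (median 7.13) in controls, a rise in 25 of 25 pairs (1.45 ± 0.11, limma adjusted p = 1.79e-10).

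Oas3, the longest synthetase of the family, lay between 7.43 and 9.65 (median 8.78) in tumor-bearing spleens, against 5.84 to 7.96 (median 7.08) in control spleens. A total of 23 tumor-bearing spleens lay above every control spleen, and the rise was 3.06-fold (1.61 ± 0.12, 25 of 25 pairs, limma adjusted p = 8.11e-11). In blood Oas3 lay between 7.31 and 9.39 (median 8.37) in tumor-bearing mice and between 5.56 and 7.87 (median 7.26) in controls, with 21 tumor-bearing arrays above every control (1.22 ± 0.15, limma adjusted p = 7.46e-07). Oas3 passed no test in breast (-0.13 ± 0.11) or liver (0.19 ± 0.08), though it was called in liver without the arrays that stood apart (0.21 ± 0.07, limma adjusted p = 0.0242).

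Oas2 lay between 7.06 and 8.99 (median 7.84) in tumor-bearing spleens, against 6.20 to 7.16 (median 6.64) in control spleens, and rose 2.17-fold there (1.12 ± 0.10). It rose by a similar amount in blood (1.15 ± 0.15) and less in liver (0.39 ± 0.07), and gave -0.04 ± 0.12 in breast. Oas1a rose in all 4 tissues other than thymus. In breast it lay between 8.43 and 10.36 (median 9.20) in tumor-bearing mice and between 6.58 and 10.42 (median 7.94) in controls (1.21 ± 0.16, higher in 24 of 25 pairs, limma adjusted p = 2.31e-07). The breast ranges overlapped fully at the top, where a control held the highest value. In liver it lay between 7.69 and 8.54 (median 8.14) in tumor-bearing mice, against 5.64 to 7.96 (median 7.37) in controls (0.80 ± 0.11, limma adjusted p = 6.81e-06), and 15 tumor-bearing livers lay above every control. In spleen Oas1a rose by 0.90 ± 0.09 and in blood by 0.82 ± 0.15. Oasl1, another Oas-like gene, rose in breast, spleen and blood by between 0.22 and 0.33, and its blood call was lost without the arrays that stood apart (0.17 ± 0.06, limma adjusted p = 0.0738).

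**Figure D2:**
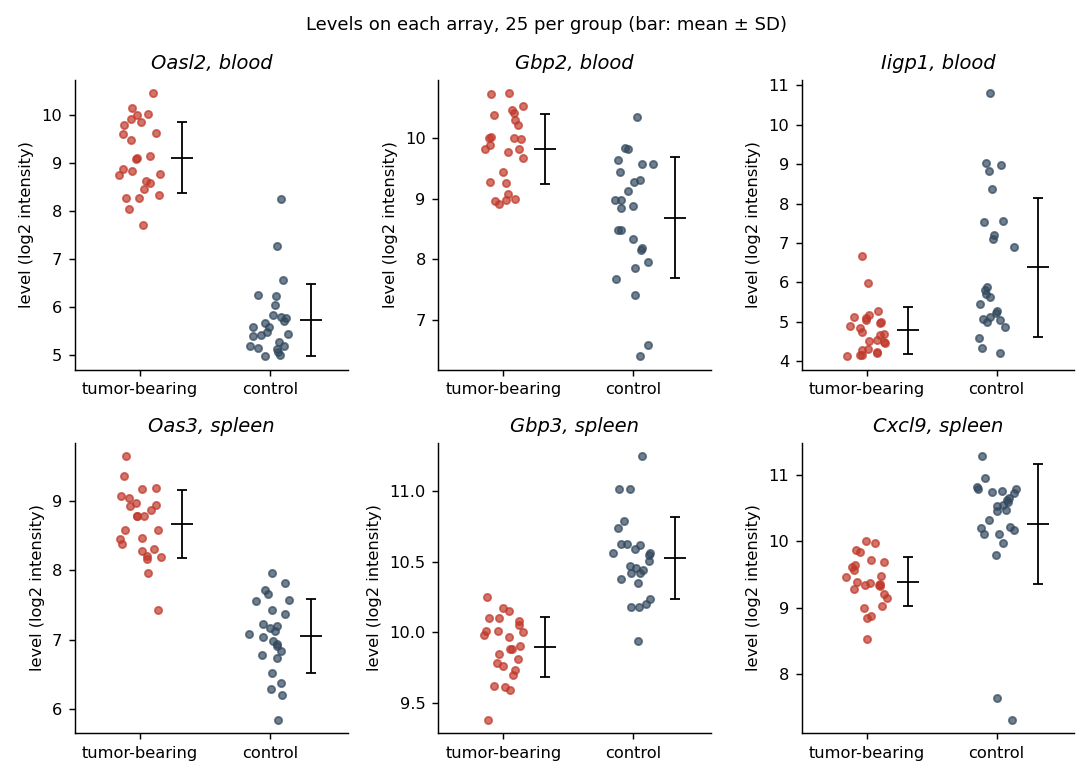
Level of 6 members on each of the 25 arrays per group (points, log2 intensity), tumor-bearing left and control right, with mean ± SD as bars. Oasl2 in blood and Oas3 in spleen are high on nearly all tumor-bearing arrays, Gbp3 and Cxcl9 in spleen are low on them, and in blood Gbp2 is higher while Iigp1 is lower and varies far less than in controls. The Iigp1 signal was dim in tumor-bearing blood. The 2 control spleens at the bottom of the Cxcl9 panel, numbers 20 and 15, are among the arrays that stood apart.

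The Ifit genes, whose proteins bind foreign RNA and block its translation, were called in spleen, where 2 of 3 rose, and in breast, where 2 of 3 fell. Ifit1 lay between 6.02 and 9.05 (median 6.50) in tumor-bearing spleens, against 5.60 to 6.99 (median 5.95) in control spleens, and rose in 24 of 25 pairs (0.63 ± 0.12, limma adjusted p = 7.78e-05). The spleen ranges overlapped widely, with 4 tumor-bearing arrays above every control. In the other tissues its change passed no test, at 0.43 ± 0.21 in breast, -0.01 ± 0.11 in liver, 0.33 ± 0.12 in blood and 0.14 in thymus. Ifit2 rose slightly in spleen (0.16 ± 0.06) and fell in breast (-0.65 ± 0.17), and Ifit3 fell in breast (-0.83 ± 0.19) and was called nowhere else. In blood Ifit2 and Ifit3 gave -0.47 ± 0.21 and -0.11 ± 0.07, neither of them called.

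Usp18, the protease that removes Isg15 from proteins and damps signalling from Ifnar2, rose in spleen in 25 of 25 pairs (0.96 ± 0.11, limma adjusted p = 7.36e-08) and in blood (0.42 ± 0.14). Of the antiviral effectors, Rsad2, which encodes the nucleotide-modifying enzyme viperin, rose in liver (0.50 ± 0.09), spleen (0.88 ± 0.17) and blood (0.42 ± 0.12). Its levels in blood were already near the top of the scale in both groups, between 13.81 and 14.16 in tumor-bearing mice and between 10.70 and 14.01 in controls, and 12 tumor-bearing arrays lay above every control. Without the arrays that stood apart, the blood change was 0.27 ± 0.03. In breast the Rsad2 probe set used here was not called (-0.29 ± 0.14), while the others were called lower (-0.28 ± 0.10 and -0.39 ± 0.13). Cmpk2, a nucleotide kinase that neighbours Rsad2, rose in spleen (0.58 ± 0.11) and blood (0.28 ± 0.09) and fell in breast (-0.71 ± 0.16). Its blood call was lost without the arrays that stood apart (0.20 ± 0.07, limma adjusted p = 0.0688). The other Cmpk2 probe set was called higher in spleen and blood as well, but was not called in breast (-0.09 ± 0.09). The dynamin-like GTPase gene Mx2 rose in liver (0.39 ± 0.07) and spleen (0.16 ± 0.04).

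Among the transcription factors, Irf7, the factor that amplifies type I interferon production, rose in liver, spleen and blood by nearly the same amount. It lay between 7.14 and 8.32 (median 7.83) in tumor-bearing livers, against 5.45 to 8.41 (median 7.32) in control livers (0.45 ± 0.13, limma adjusted p = 0.0229). In spleen it lay between 8.36 and 9.62 (median 8.97) in tumor-bearing mice, against 7.20 to 9.07 (median 8.64) in controls (0.46 ± 0.10). In blood it lay between 6.13 and 7.97 (median 6.92) in tumor-bearing mice, against 5.72 to 7.23 (median 6.50) in controls (0.49 ± 0.11). The groups overlapped in each of these 3 tissues, and in breast Irf7 was not called (0.36 ± 0.18). Irf9, the DNA-binding part of the type I complex, rose in breast (0.43 ± 0.09) and blood (0.61 ± 0.17). Its partner Stat2 fell in spleen, where it lay between 7.75 and 9.19 (median 8.71) in tumor-bearing mice, against 7.81 to 9.64 (median 9.14) in controls (-0.52 ± 0.10, lower in 23 of 25 pairs). In breast the 2 probe sets of Stat2 were called in opposite directions (0.39 ± 0.14 and -0.28 ± 0.12), so its direction there is uncertain.

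The sensors of viral nucleic acid were called in few tissues each. Ddx58, which encodes the RNA sensor RIG-I, lay between 8.92 and 10.03 (median 9.42) in tumor-bearing breasts, against 8.45 to 9.46 (median 8.91) in control breasts (0.57 ± 0.07, limma adjusted p = 2.45e-07), and it fell in spleen (-0.31 ± 0.06). Zbp1, a sensor of left-handed nucleic acid that can trigger cell death, lay between 6.88 and 8.27 (median 7.40) in tumor-bearing breasts, against 5.63 to 8.45 (median 6.62) in control breasts (0.77 ± 0.13). In both genes the breast groups overlapped. Ifih1, the gene of the RNA sensor MDA5, rose in spleen (0.57 ± 0.06) and blood (0.50 ± 0.13), as did Dhx58, a regulator of both RNA sensors (0.38 ± 0.09 and 0.36 ± 0.09). Only 1 of the 3 Dhx58 probe sets was called in these 2 tissues, and the other 2 were called in opposite directions in breast.

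Of the remaining interferon-induced genes, Ifi27l2a, whose protein sits in mitochondrial and nuclear membranes, changed in opposite directions in breast and liver. In liver it lay between 7.52 and 9.09 (median 8.43) in tumor-bearing mice, against 5.72 to 7.61 (median 6.67) in controls, with 23 tumor-bearing livers above every control. The rise was 3.45-fold (1.79 ± 0.12, 25 of 25 pairs, limma adjusted p = 1.83e-11), the largest of any member in liver. In breast it lay between 8.93 and 13.25 (median 10.96) in tumor-bearing mice, against 11.66 to 14.10 (median 13.40) in controls, with 18 tumor-bearing arrays below every control. Its level in tumor-bearing breast was 20.6 percent of that in controls (-2.28 ± 0.24, limma adjusted p = 7.83e-09), the largest fall of any member. It also rose in spleen (0.64 ± 0.14) and blood (0.86 ± 0.18).

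Trim30a, a ubiquitin ligase gene, lay between 7.98 and 10.29 (median 8.77) in blood of tumor-bearing mice, against 6.82 to 8.30 (median 7.74) in control blood. Here 24 of the 25 tumor-bearing arrays lay above every control, and the rise was 2.45-fold (1.29 ± 0.13, limma adjusted p = 8.05e-08). In liver it lay between 7.33 and 8.27 (median 7.85) in tumor-bearing mice, against 5.73 to 7.74 (median 7.26) in controls (0.63 ± 0.10). In breast its 2 probe sets were called in opposite directions (0.33 ± 0.13 and -0.38 ± 0.15). Rtp4, a chaperone gene for surface receptors, rose in blood (1.55 ± 0.20), breast (0.49 ± 0.13) and spleen (0.49 ± 0.11). The other Rtp4 probe set was not called in blood, breast or spleen (0.05 ± 0.04, 0.10 ± 0.08 and 0.11 ± 0.05). Xaf1, a pro-apoptotic gene, rose in liver alone among the tissues tested (0.44 ± 0.14), and Parp14, a mono-ADP-ribosyl transferase gene, fell in breast (-0.46 ± 0.12). The other Xaf1 probe set was not called in liver (0.12 ± 0.06) and was called lower in breast (-0.16 ± 0.06).

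The interferon-inducible GTPases mark and break the vacuoles of intracellular pathogens and are strongly induced by interferon gamma. In spleen 4 of the 5 measured members fell and Igtp rose. Gbp3 lay between 9.38 and 10.25 (median 9.90) in tumor-bearing spleens, against 9.94 to 11.25 (median 10.51) in control spleens, and 13 tumor-bearing arrays lay below every control (-0.63 ± 0.07, limma adjusted p = 5.39e-08). Irgm1 lay between 9.29 and 10.48 (median 9.81) in tumor-bearing spleens, against 9.80 to 11.24 (median 10.32) in control spleens (-0.53 ± 0.10). Iigp1 lay between 9.86 and 11.17 (median 10.33) in tumor-bearing spleens, against 9.59 to 12.67 (median 10.98) in control spleens (-0.75 ± 0.19, limma adjusted p = 0.00219). The highest control spleens of Iigp1 had no counterpart among the tumor-bearing ones, while the lower ends of the ranges overlapped. Igtp, which encodes a GTPase of the same family, rose by 0.28 ± 0.08.

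In blood the GTPases split. Gbp2 lay between 8.91 and 10.74 (median 9.89) in tumor-bearing mice, against 6.40 to 10.35 (median 8.87) in controls, and rose in 22 of 25 pairs (1.14 ± 0.23, limma adjusted p = 0.000828). Iigp1 lay between 4.12 and 6.67 (median 4.69) in tumor-bearing mice, against 4.20 to 10.81 (median 5.71) in controls. It fell to 33.1 percent of the control level (-1.59 ± 0.37, lower in 20 of 25 pairs, limma adjusted p = 0.00362) and was the only member called lower in blood. The other Iigp1 probe set was called lower as well, by less (-0.90 ± 0.25). In tumor-bearing blood the Iigp1 signal was dim, with a median of 4.69 beside a floor of 3.50 set for all values. The control blood arrays reached far above the tumor-bearing ones, with 10 of the 25 controls above the highest tumor-bearing array. Gbp3, Igtp and Irgm1 were not called in blood (-0.06 ± 0.22, -0.05 ± 0.10 and -0.28 ± 0.14).

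In breast Gbp2 lay between 9.45 and 10.84 (median 9.79) in tumor-bearing mice, against 9.16 to 11.67 (median 10.75) in controls, and fell in 22 of 25 pairs (-0.85 ± 0.15, limma adjusted p = 1.72e-05). Igtp fell there as well (-0.84 ± 0.19), whereas Irgm1, whose protein holds the effector GTPases in check, rose (0.41 ± 0.10). In liver Gbp2 lay between 8.09 and 9.59 (median 8.51) in tumor-bearing mice, against 6.07 to 11.36 (median 9.07) in controls (-0.51 ± 0.25, not called). Without the 2 livers that stood apart, Gbp2 (-0.69 ± 0.23, limma adjusted p = 0.0228), Gbp3 (-0.75 ± 0.21, limma adjusted p = 0.00704) and Igtp (-0.86 ± 0.19, limma adjusted p = 0.00101) were called lower in liver.

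Genes of antigen processing fell in breast and spleen, 4 of 4 in each by the probe set used for each gene. Psmb9, a catalytic subunit of the immunoproteasome, lay between 7.63 and 9.87 (median 8.61) in tumor-bearing breasts, against 7.93 to 10.58 (median 9.95) in control breasts (-1.16 ± 0.14, limma adjusted p = 9.79e-08). In spleen it fell by 0.46 ± 0.16. The other catalytic subunit of the list, Psmb8, fell in breast (-0.68 ± 0.13) and spleen (-0.42 ± 0.16), as did the peptide transporter gene Tap1 (-0.45 ± 0.14 and -0.54 ± 0.16). The other probe sets of Tap1 were not called in breast (-0.01 ± 0.04, 0.11 ± 0.06 and -0.10 ± 0.08). In spleen another Tap1 probe set was called lower as well (-0.28 ± 0.06), and the rest were not called (0.01 ± 0.04 and -0.02 ± 0.04). Ubd, which encodes the ubiquitin-like modifier FAT10, fell further, by 1.41 ± 0.26 in breast and by 1.33 ± 0.33 in spleen. The tumor-bearing spleen closest to thymus held the highest Ubd of all spleens, and without the arrays that stood apart Ubd fell by 1.72 ± 0.18 in spleen.

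The chemokines Cxcl9 and Cxcl10 attract activated T and NK cells through the receptor Cxcr3. Cxcl9 lay between 5.87 and 8.98 (median 6.65) in tumor-bearing breasts, against 5.93 to 10.07 (median 9.10) in control breasts, and its level was 22.9 percent of that in controls (-2.12 ± 0.28, lower in 22 of 25 pairs, limma adjusted p = 2.81e-07). In spleen it lay between 8.53 and 10.01 (median 9.37) in tumor-bearing mice, against 7.31 to 11.28 (median 10.53) in controls (-0.87 ± 0.20, lower in 23 of 25 pairs, limma adjusted p = 0.000797). Of the 25 control spleens 21 lay above the highest tumor-bearing spleen. The 2 control spleens below all others were arrays that stood apart, and without them the change was -1.12 ± 0.11.

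Cxcl10 lay between 7.37 and 9.68 (median 8.54) in tumor-bearing spleens, against 7.16 to 9.99 (median 9.32) in control spleens (-0.70 ± 0.19, limma adjusted p = 0.00377). The ranges overlapped almost fully. It was not called in breast (-0.30 ± 0.14) or liver (-0.30 ± 0.22). In blood both chemokines were dim, with medians of 4.44 in tumor-bearing mice and 4.31 in controls for Cxcl9 and 4.01 in tumor-bearing mice and 3.89 in controls for Cxcl10, and neither was called.

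The type I members (the Oas and Ifit genes, 8 of 10 listed measured) and the gamma-driven members (Gbp2, Gbp3, Iigp1 and Cxcl9) moved apart in the same tissue. In spleen 7 of the 8 type I members rose and 0 fell, with a median change of 0.76, while all 4 gamma-driven members fell, with a median of -0.69. The median over all genes there was 0.0. In blood 5 type I members rose and 0 fell (median 0.57), and of the gamma-driven members 1 rose and 1 fell (median -0.06), beside -0.03 for all genes. In liver 3 type I members rose (median 0.27) and 0 of the gamma-driven ones were called (median -0.37), beside 0.01 for all genes. In breast 3 type I members rose and 2 fell (median 0.14), and 2 gamma-driven members fell (median -0.57), beside -0.03 for all genes. Over the reduced set, 3 of the 4 gamma-driven members fell in liver (median -0.62) and 3 in breast (median -0.63), and 5 type I members rose in liver.

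The order held within most single pairs of mice in each tissue except thymus. The median change of the type I members lay above that of the gamma-driven members in 25 of 25 spleen pairs, 21 blood pairs, 20 breast pairs, 20 liver pairs and 10 thymus pairs. In spleen the type I median was above 0 in 25 of 25 pairs, from 0.15 to 2.02 with a middle value of 0.69, and the gamma-driven median was below 0 in 20, from -1.77 to 0.66 with a middle value of -0.54. The value of 0.66 was that of pair 15, and pair 20 also lay above 0 (0.22). Both pairs hold spleen arrays that stood apart. With wider lists of 19 type I and 10 gamma-driven members, 15 rose and 1 fell of the first in spleen and 1 rose and 9 fell of the second. In blood the wider lists had 12 rising and 0 falling of the first and 1 and 1 of the second. The members share arrays and pairs, so these counts describe the lists and are no test of them.

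**Figure D3:**
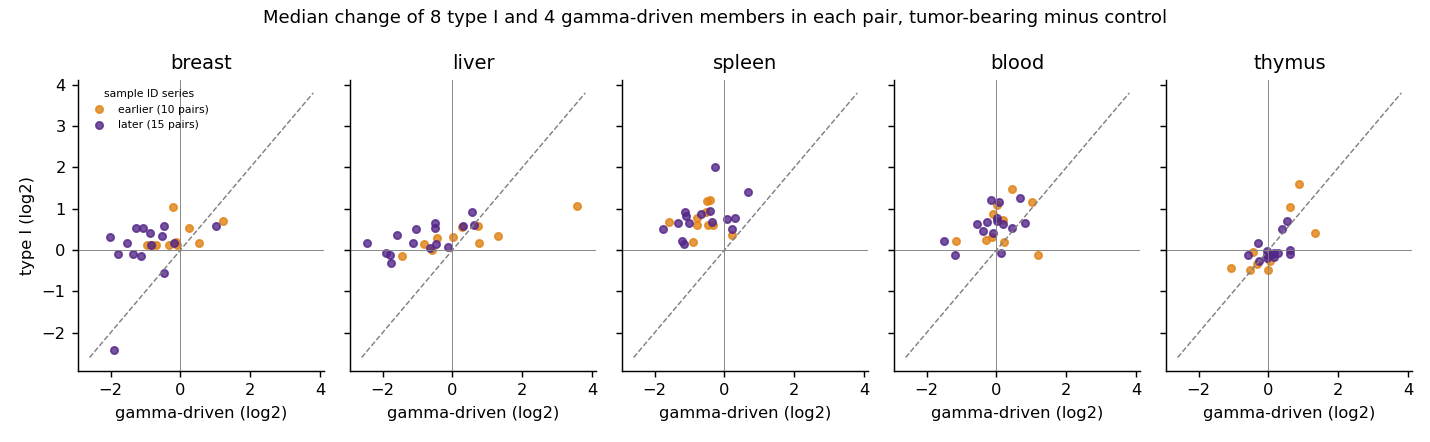
Median change of the 8 type I members (vertical axis) against that of the 4 gamma-driven members (horizontal axis) in each of the 25 pairs of a tissue, tumor-bearing minus control on the log2 scale, coloured by sample ID series, with the line of equal change dashed. All 25 spleen pairs lie above the dashed line and above 0 on the vertical axis, while thymus pairs gather around 0 on both axes.

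In thymus the levels of both groups overlapped almost fully. Oas1a lay between 8.83 and 10.15 (median 9.66) in tumor-bearing mice and between 5.87 and 10.24 (median 9.64) in controls. Gbp2 lay between 10.60 and 11.48 (median 10.92) in tumor-bearing mice and between 8.23 and 11.28 (median 10.95) in controls. The low end of the controls was thymus control 9 in both genes, 1 of the arrays that stood apart. The 95 percent interval of the change ran from -0.12 to 0.46 for Oas1a, from -0.08 to 0.42 for Oasl2 and from -0.07 to 0.36 for Gbp2. Rsad2 had the widest change, 0.69 ± 0.29 (limma adjusted p = 0.995), with an interval from 0.09 to 1.29.

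Whether the change of a member differed between liver, spleen, blood and thymus was tested on the within-pair differences. It differed for 22 of the 38 members, against 29.1 percent of all genes, and for 33 members without the arrays that stood apart, beside 47.0 percent of all genes. Oasl2 in blood, Oas3 in spleen and Ifi27l2a in liver gave the smallest p-values. The Oasl2 change was 3.21 ± 0.20 smaller in thymus than in blood (limma adjusted p = 5.17e-26). The Gbp2 change was 1.65 ± 0.27 higher in blood than in liver (limma adjusted p = 1.43e-06), and the Igtp change was 0.94 ± 0.24 higher in spleen than in liver (limma adjusted p = 0.00249). By pairs of tissues, the change differed for 12 members between spleen and liver (16.6 percent of all genes), 10 between blood and liver (12.6 percent), 4 between thymus and liver (6.41 percent), 12 between spleen and thymus (15.1 percent) and 11 between thymus and blood (8.87 percent). Spleen and blood differed for 9 members, of which 1 was higher and 8 were lower in spleen (14.7 percent of all genes). In the reduced set of pairs, these counts grew to 16 between spleen and liver, 16 between blood and liver and 15 between thymus and liver. They grew to 19 between spleen and thymus, 15 between thymus and blood and 19 between spleen and blood, of which 5 were higher and 14 lower in spleen. The shares of all genes by pair of tissues were not worked out for this set. In the test over all these tissues the share of all genes grew from 29.1 to 47.0 percent. The growth is thus not read as a result about the members. Trim30a was among those that differed between spleen and blood with all pairs, at -1.32 ± 0.21 for spleen minus blood (limma adjusted p = 4.12e-07).

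Tumor-bearing livers varied less than control livers in most of these genes. Igtp had a standard deviation of 0.34 in tumor-bearing livers and 1.00 in control livers over the 23 pairs without the arrays that stood apart. Gbp2 had 0.38 in tumor-bearing and 1.11 in control livers, and Iigp1 0.12 in tumor-bearing and 0.42 in control livers. For Igtp the gap lay at the top of the range, where the highest liver was at 11.20 in tumor-bearing mice and 13.27 in controls, while the lowest was at 9.84 in tumor-bearing mice and 9.99 in controls. The type I members Oas2 (0.20 in tumor-bearing and 0.22 in control livers) and Oasl1 (0.34 in both) had nearly equal spreads. Over these 23 pairs the spread was smaller in tumor-bearing livers for 34 of the 38 members (89.5 percent), against 36.5 percent of all 18194 genes. With all 25 pairs it was 38 of 38, against 92.2 percent of all genes. The comparison of spread was chosen after the values were seen and is a description.

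**Figure D4:**
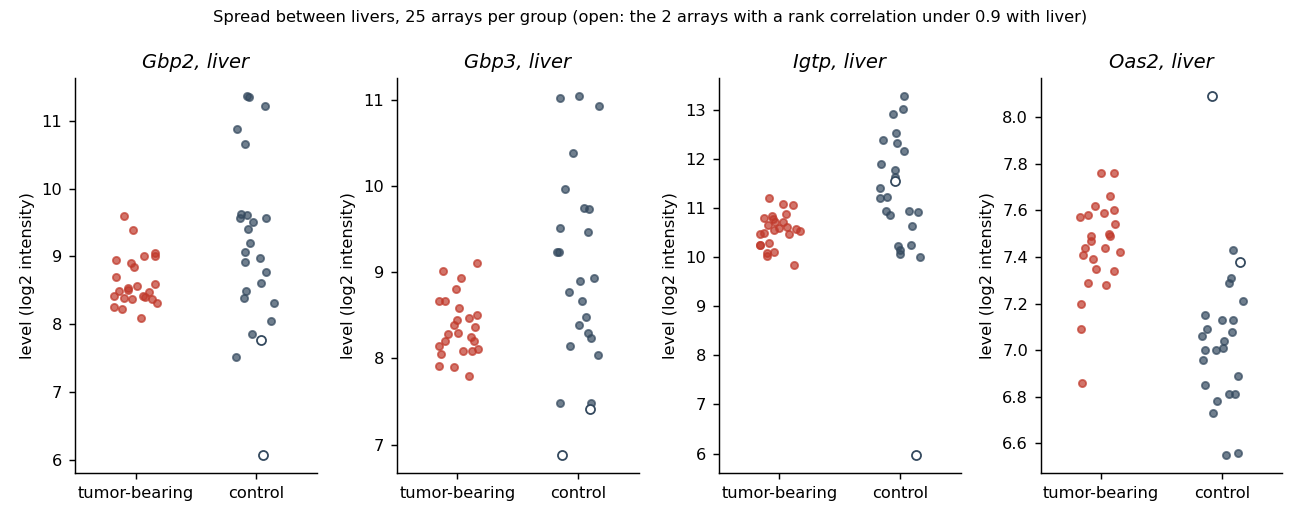
Level of Gbp2, Gbp3, Igtp and Oas2 on each of the 25 liver arrays per group (points, log2 intensity), tumor-bearing left and control right, with the 2 livers that stood apart as open points. The filled points of the 3 GTPases cover a wide range in controls and a narrow one in tumor-bearing livers, and those of Oas2 are about equally wide in both. These genes are examples, and the spread was not counted by type.

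Some members varied together from pair to pair of mice, measured on the same arrays. Changes of Gbp2 and Igtp correlated over 25 pairs with Pearson r = 0.87 in breast (rho = 0.86), 0.87 in liver (rho = 0.88) and 0.73 in spleen (rho = 0.77), each with a permutation p adjusted over 15 relations of at most 0.00015 for r and 0.0001 for rho. Without the 2 pairs farthest from the median, r was 0.85, 0.87 and 0.77. In thymus it was 0.17 (rho = 0.18, permutation adjusted p = 0.302 and 0.418). In blood r was 0.68 (permutation adjusted p = 0.0005) and rho 0.45 (0.051), but 0.32 without the 2 farthest pairs, so the blood relation rests on them. With the reduced set, r of Gbp2 with Igtp in blood was 0.53 (permutation adjusted p = 0.0169) and rho 0.40 (0.0929).

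Changes of Ifit1 and Ifit3 correlated with r = 0.91 in breast (rho = 0.61) and 0.54 in spleen (rho = 0.58), with permutation adjusted p = 5e-05 and 0.0114 for r and 0.00641 and 0.00777 for rho. Without the 2 farthest pairs r was 0.73 in breast and 0.82 in spleen. In thymus r was 0.78 (rho = 0.48, permutation adjusted p = 0.00015 and 0.0422), and 0.47 without the 2 farthest pairs. Without the arrays that stood apart it was 0.51 (rho = 0.38, permutation adjusted p = 0.022 and 0.109). In blood r was 0.65 (rho = 0.42, permutation adjusted p = 0.00133 and 0.0602). It was 0.35 without the 2 farthest pairs, so that relation rests on those pairs. Without the arrays that stood apart, r in blood was 0.72 (rho = 0.57, permutation adjusted p = 0.000325 and 0.0105). In liver r was 0.30 (rho = 0.32, permutation adjusted p = 0.188 and 0.153), and 0.61 without the arrays that stood apart (rho = 0.49, permutation adjusted p = 0.00439 and 0.0344). Within the earlier and later series r was 0.90 and 0.92 in breast, 0.67 and 0.53 in spleen, 0.67 and 0.67 in blood, 0.86 and 0.51 in thymus, and -0.08 and 0.79 in liver.

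Ifit1 and Gbp2, a pair across the types, gave r from -0.06 in thymus to 0.36 in breast, and none of these 5 values passed with all pairs (permutation adjusted p from 0.142 to 0.713). Over the reduced set, the relation passed in liver (r = 0.52, rho = 0.46, permutation adjusted p = 0.0189 and 0.0458), and in spleen for rho (0.58, 0.00972) but not for r (0.44, 0.0505). Their rho in spleen also passed with all pairs (0.46, permutation adjusted p = 0.0496), where r was 0.32, and 0.05 without the 2 farthest pairs. In liver r of Ifit1 with Gbp2 was -0.15 in the earlier and 0.79 in the later series, where it passed (permutation adjusted p = 0.00177). With all pairs, 8 of the 15 relations passed for r. Within the earlier and later sample ID series, r of Gbp2 with Igtp was 0.94 and 0.76 in breast, 0.87 and 0.95 in liver, 0.71 and 0.79 in spleen, 0.61 and 0.72 in blood, and 0.12 and 0.47 in thymus.

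The Gbp2 change in liver went with that in breast and with that in spleen of the same pair of mice, while breast and spleen had r = 0.01 with each other (rho = 0.22, permutation adjusted p = 0.967 and 0.597). In the reduced set of pairs, Gbp2 in breast and spleen gave r = 0.34 (permutation adjusted p = 0.236) and rho = 0.58 (0.0286), so rho then passed. Mice were linked across tissues through the names and ID numbers of the samples, a link that the labels do not state outright. The Gbp2 change in liver correlated with that in breast (r = 0.57, permutation adjusted p = 0.0358 over 20 relations, and rho = 0.67, adjusted p = 0.0045) and with that in spleen (r = 0.53, permutation adjusted p = 0.0439, and rho = 0.67, adjusted p = 0.0045). Without the 2 pairs farthest from the median, r was 0.86 for breast and liver and 0.59 for liver and spleen. Within the earlier and later series r was 0.32 and 0.58 for breast and liver, and 0.68 and 0.63 for liver and spleen. None of these passed for r (permutation adjusted p from 0.179 to 0.789). For rho, both relations passed in the later series (permutation adjusted p = 0.0234 and 0.0298) but not in the earlier one. The Gbp2 change lay lower in the later pairs in breast (-1.14, against -0.41) and liver (-0.97, against 0.18). The part of this shift in r was not tested. The relation of Gbp2 in liver with thymus (r = 0.57, rho = 0.45) passed for r (permutation adjusted p = 0.0358) but not for rho (0.122), and for neither without the arrays that stood apart (r = 0.35, rho = 0.41, permutation adjusted p = 0.236 and 0.135). Liver with spleen then had r = 0.85, and liver with breast r = 0.57. None of the 10 relations of Ifit1 passed with all pairs, the highest r being liver with thymus (r = 0.44, permutation adjusted p = 0.138). With the reduced set, Ifit1 in liver and spleen passed for rho (0.65, permutation adjusted p = 0.0121) but not for r (0.43, 0.123).

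**Figure D5:**
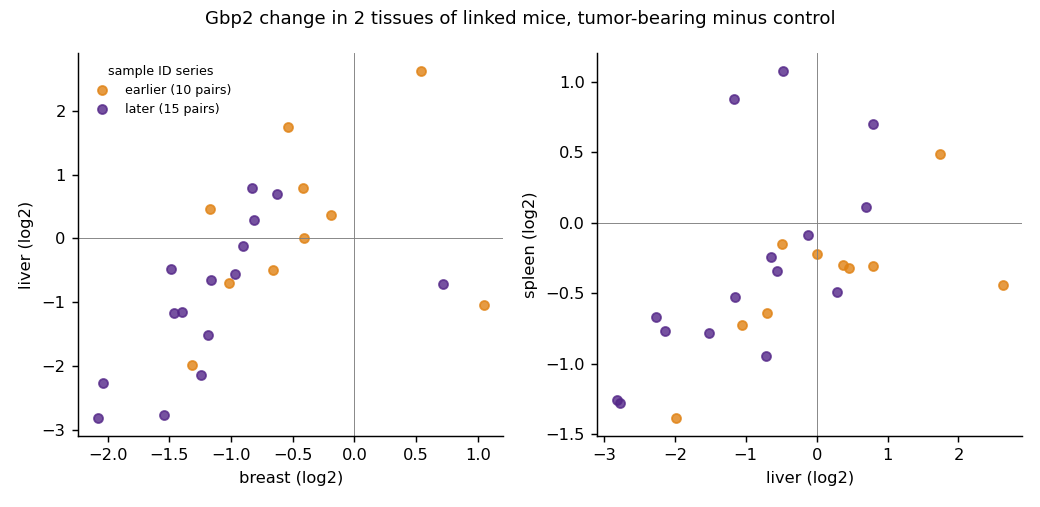
Change of Gbp2 in liver against breast (left) and in spleen against liver (right) for the 25 linked pairs of mice, tumor-bearing minus control on the log2 scale, coloured by sample ID series. Pairs with a low value in one tissue tend to have a low value in the other (r = 0.57 and 0.53), and a few pairs lie far from the trend in each panel.

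The sample IDs fall into an earlier series of 10 pairs and a later series of 15, and in breast 3 members had a lower change in the later one. The change differed between the series for these 3 in breast, against 3.91 percent of all genes, and for 0 members in the other 4 tissues by limma (0.0 percent of all genes), where liver had 2 members with an unadjusted p under 0.05, thymus 1, and spleen and blood 0. Igtp was at -1.32 in the later and -0.11 in the earlier pairs, Cxcl10 at -0.66 in the later and 0.24 in the earlier pairs, and Parp14 at -0.77 in the later and 0.01 in the earlier pairs. Without the array that stood apart in breast, 8 members differed. Without those in the other tissues it was again 0 by limma, and 18 members in thymus, 2 in spleen, 1 in liver and 0 in blood had an unadjusted p under 0.05. Within the series, 4 members rose and 15 fell in breast in the later pairs, and 10 rose and 4 fell in the earlier pairs. The series differ in size. For this comparison, shares of all genes were not worked out within a series or without the arrays that stood apart. The counts in these settings are thus not read as a trait of the members. Cxcl9 was at -2.58 in the later and -1.44 in the earlier pairs, a difference that passed no test (limma adjusted p = 0.234). The type I rises in spleen were present in both series, with 6 of 8 members higher in each.

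Of 53 listed pathway genes outside the members, 45 were measured. They are ligands, receptors and kinases, STAT and IRF factors, upstream sensing genes, feedback inhibitors and genes of the MHC class I path. Of the 45, 11 rose and 18 fell in breast, 9 rose and 1 fell in liver, and 8 rose and 20 fell in spleen. In blood 10 rose and 3 fell, and 0 were called in thymus. The 20 falls in spleen include 6 genes of the MHC class I path and 2 feedback inhibitors. Of all genes 30.0 percent rose and 32.3 percent fell in breast, against 24.4 percent of the 45 pathway genes rising. In spleen 17.8 and 44.4 percent of the list rose and fell, against 22.4 and 18.3 percent of all genes, and in blood 22.2 and 6.67 percent of the list, against 8.66 and 4.27 percent of all genes. The liver background was 7.89 and 2.28 percent. Without the arrays that stood apart, 22 pathway genes fell in breast, 6 in liver, 28 in spleen and 2 in blood. These were 48.9, 13.3, 62.2 and 4.44 percent of the list, against 34.8, 16.6, 26.6 and 5.73 percent of all genes. The share that fell thus lay below that of all genes in liver and blood. In the same setting 11 of the 45 rose in breast, 11 in liver, 7 in spleen and 9 in blood. Of all genes 31.0, 13.7, 29.5 and 8.43 percent rose in these tissues. Of the ligands, the interferon gamma gene Ifng fell in breast (-0.35 ± 0.06), spleen (-0.25 ± 0.07) and blood (-0.46 ± 0.14). The blood call of Ifng was lost without the arrays that stood apart (-0.41 ± 0.15, limma adjusted p = 0.0751). Its signal was dim, with medians of 3.50, 4.76 and 4.02 in tumor-bearing mice and 3.87, 4.99 and 4.31 in controls, where 3.50 is the floor set for all values. Type I ligand genes were called only in breast, where Ifna1, Ifna4 and Ifnab fell, and in spleen, where Ifna1 (0.19 ± 0.06) and Ifna5 (0.12 ± 0.04) rose. The Ifna4 call in breast was lost without the array that stood apart (-0.12 ± 0.05, limma adjusted p = 0.0593). Among receptors, Ifngr1 and Ifngr2 rose in liver (0.44 ± 0.14 and 0.35 ± 0.11) and blood (0.75 ± 0.16 and 0.94 ± 0.13), and Ifngr1 fell in breast (-0.57 ± 0.09). Ifnar2, a chain of the type I receptor, rose in spleen (0.16 ± 0.06) and blood (0.56 ± 0.12) and fell in breast (-0.37 ± 0.08). Its spleen call was lost without the arrays that stood apart (0.13 ± 0.06, limma adjusted p = 0.0626), where 5 rather than 2 of the 9 receptor and kinase genes fell and 1 rather than 2 rose.

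Of the other STAT and IRF factors, 6 of 7 fell in spleen and 0 rose. Irf1, the factor induced by interferon gamma, fell in spleen (-0.57 ± 0.12) and breast (-0.36 ± 0.09). Nlrc5, the transactivator of MHC class I genes, fell to 32.4 percent of the control level in breast (-1.63 ± 0.24), and fell in spleen (-0.80 ± 0.20) and blood (-0.59 ± 0.16). Of 7 measured genes of the MHC class I path, 4 fell in breast, 6 fell in spleen and 0 rose in either. Over the reduced set, 6 fell in breast, 7 in spleen and 3 in liver. The feedback inhibitor gene Socs3, which is also induced by IL-6, rose in breast (1.07 ± 0.14), liver (3.02 ± 0.18), spleen (1.45 ± 0.12) and blood (2.70 ± 0.22). Myd88, an adaptor of Toll-like receptors, rose in the same 4 tissues, 4.41-fold in blood (2.14 ± 0.18, 25 of 25 pairs).

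Markers of immune cells moved as well, also in thymus, where no member was called. Of 7 measured neutrophil markers, 7 rose in each of liver, spleen and blood, 4 in breast and 2 in thymus, with 4 in thymus without the arrays that stood apart. Their summed intensity in blood lay between 16300 and 71200 (median 35400) in tumor-bearing mice and between 721 and 10800 (median 3780) in controls, without overlap. In spleen it lay between 8390 and 123000 (median 85000) in tumor-bearing mice and between 1790 and 54900 (median 26700) in controls. The rise of neutrophil markers stood beside the Oas rises in blood and spleen, and its part in them was not tested.

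Of 6 measured markers each, all T, NK and B cell markers fell in breast, 3, 6 and 5 of them fell in blood, and 1 of each list fell in spleen. In the reduced set of pairs, all 6 of each list fell in spleen, with median changes of -0.96 for T, -0.63 for NK and -0.77 for B cell markers. In breast the summed T cell markers lay between 229 and 3600 (median 318) in tumor-bearing mice and between 296 and 5210 (median 1520) in controls. In spleen the NK markers lay between 1510 and 3240 (median 2470) in tumor-bearing mice and between 320 and 5240 (median 3500) in controls, and in blood between 589 and 3410 (median 1330) in tumor-bearing mice and between 368 and 5250 (median 2500) in controls. Markers of plasmacytoid dendritic cells, the main producers of type I interferon, fell in 6 of 6 in breast and 3 of 6 in spleen, and in 5 of 6 in spleen without the arrays that stood apart. In liver 1 of these 6 rose and 0 fell, and 2 rose over the reduced set. Of 7 measured macrophage and monocyte markers, 4 rose and 0 fell in breast, and 1 rose and 1 fell in spleen. Over the reduced set 3 rose and 1 fell in breast, and 1 rose and 4 fell in spleen. Of 6 measured dendritic cell markers, 2 rose and 4 fell in breast, and 2 fell in spleen. Over the reduced set 1 rose and 4 fell in breast, and 5 fell in spleen. No marker of any of these lists was at the floor on every array of a tissue. The part of these cells in the falls of Cxcl9, the GTPases and the antigen processing genes was not tested.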

How the data were processed

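Total RNA of 5 tissues was labelled with biotin and hybridised to GeneChip arrays, per the labels' protocols. The deposited table holds linear probe set intensity for 45101 probe sets on 250 arrays, summarised and normalized by the authors with a method not given in the sources used here. Array medians ran from 19.7 to 31.9 in blood and from 117 to 141 in thymus, so levels were compared within a tissue only. Values below 11.3, the 5th percentile of all, were set to it before log2. Each gene was read from the single-symbol probe set with the highest mean, with symbols updated by Entrez number to GRCm38.p6.

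Each tissue was fitted by limma 3.58.1 (R 4.3.3), blocking on the pair that the labels name. After removal of group means, the median correlation of paired mice was 0.08 (breast), 0.31 (liver), 0.15 (spleen), 0.22 (blood) and 0.25 (thymus), against -0.02 to 0.01 for other pairings. Tissues were compared on 100 within-pair differences, with 6 contrasts. Correlations used 100000 two-sided permutations, with 1e-05 as the smallest p they can give. The scripts were first tested on simulated data. Members, lists and tests were chosen with earlier results of these data known. Values per group are given for a chosen group of members and for members with the smallest p per tissue and direction, and other members by their change. The planned relations of Isg15, which had no probe set of its own, were run with Ifit1. Python 3.11.15, numpy 2.4.6, pandas 2.3.3, scipy 1.17.1 and matplotlib 3.10.9 were used.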

Additional observations from a re-analysis of the deposited data

Results flagged for a closer look

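The change of 22 members differed between liver, spleen, blood and thymus by the test of the difference itself (limma, adjusted over all genes), and for each the pair of tissues with the largest difference is given on the log2 scale. Spleen minus thymus was 1.66 for Oas3, 0.87 for Usp18, 0.73 for Oas1a, 0.43 for Dhx58, -0.67 for Gbp3, -0.97 for Cxcl9 and -1.63 for Ubd. The Gbp3 difference did not pass as a single contrast (limma adjusted p = 0.054), though its test over all 4 tissues did. Thymus minus blood was -3.21 for Oasl2, -1.35 for Rtp4, -1.06 for Oas2 and 1.73 for Iigp1, and thymus minus liver was -1.87 for Ifi27l2a and -0.46 for Oasl1. Spleen minus liver was 0.94 for Igtp, 0.67 for Cmpk2, 0.64 for Ifit1, -0.48 for Ddx58 and -1.04 for Stat2. Spleen minus blood was -1.32 for Trim30a, and blood minus liver was 1.65 for Gbp2, -0.45 for Mx2 and -0.49 for Xaf1. In breast, the change in the later sample ID series minus that in the earlier one passed the test for Igtp (-1.21), Cxcl10 (-0.91) and Parp14 (-0.79).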

How the results depend on the processing

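Of 77 called changes of single members, 77 kept direction and call with outlying arrays left out and with probe sets left out whose names mark possible cross-hybridisation, 76 with no floor, 75 without the arrays that stood apart, 74 without the replicate block and 72 after quantile normalization. The later series alone (15 pairs) kept 52 and the earlier (10 pairs) 43, each with fewer samples. Without the block, 20 of 22 calls were kept in breast, 9 of 9 in liver, 28 of 29 in spleen and 17 of 17 in blood. Direction turned for Parp14 in breast in the earlier series (0.01) and for Trim30a in breast with the mean of its probe sets (-0.02).

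Liver counts depended most on the setting. Members called higher there numbered 5 after quantile normalization, 15 without outlying arrays, 15 without the arrays that stood apart and 1 in the earlier series. Those called lower in liver numbered 1, 4 and 7 under the first 3 of these settings and 6 in the later series. In breast 4 were higher in the later and 4 lower in the earlier series, and in spleen 5 were lower in the later series. In blood 3 were higher in the earlier and 9 in the later series, and 2 were lower after quantile normalization, 5 without outlying arrays and 0 in the earlier series. The cause was not tested. Shares of all genes were not worked out for quantile normalization, for outlying arrays left out or for single series. Whether these counts moved more than those of all genes is thus not known.

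For correlations of changes, Ifit1 with Ifit3 gave 0.79 in liver in the later series, 0.61 in liver without the arrays that stood apart, 0.35 in blood without the 2 farthest pairs and 0.51 in thymus in the later series. Gbp2 with Igtp in blood gave 0.32 without the 2 farthest pairs and 0.61 in the earlier series. Ifit1 with Gbp2 gave 0.79 in liver in the later series, and 0.52 in liver and 0.44 in spleen without the arrays that stood apart. The comparison of spread, and the settings that leave out arrays standing apart, were chosen after seeing the data.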
